A study of Caenorhabditis elegans with 2 samples.

Results

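Distal intergenic summits are peaks of LSY-2 binding signal between protein-coding genes and outside the windows around their starts. They were taken from the thresholded list of 5944 peaks on the ce11 build, which is the WBcel235 sequence. A summit counted as distal where it lay outside every protein-coding gene, more than 200 bp from every tRNA, snoRNA, snRNA and miRNA gene, and outside the window from 1000 bp upstream to 200 bp downstream of every 5′ end of a protein-coding or miRNA transcript. The rule used position only and no signal, and it left 1358 of the 5944 summits, 22.8% (exact 95% interval 21.8 to 23.9). The nearest 5′ end lay a median of 2253.5 bp away, a distance that the rule partly fixes, and 45 summits lay within 1000 bp of one, on its downstream side. Starts of other non-coding genes were not excluded. The other summits fell in promoter windows (3393), introns (827), mRNA exons (168) and at small RNA genes (198).

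The series held 1 group of 2 biological replicates of ChIP-seq, which sequences the DNA fragments held by a protein. The animals were whole Caenorhabditis elegans at the L4 stage, of mixed sex, of strain OP367 with the genotype unc-119(tm4063) III; wgIs367. All animals of both replicates carried the unc-119 mutation and the insertion, from which LSY-2 is made with GFP and FLAG at its C-terminus, and chromatin was broken by sonication. The antibody is labelled only as lsy-2. It is 1 transgenic line, and the promoter that drives the insertion was not given in the sources used here. Whole animals do not show in which cells a site was bound. Peak lists hold no reads, which leaves the depth of both libraries unknown, and all intervals cover counting error over peaks only. The signal is the deposited peak height, whose scale is not given.

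LSY-2 is a zinc finger transcription factor of the nucleus, known for its part in the left-right difference between the ASE taste neurons. In the compact genome of this worm most known control sequence lies close to gene starts, and sequence far from any gene holds fewer described elements, among them enhancers, binding sites of chromosome-wide regulators and starts of non-coding RNA. On the X chromosome such sites include the recruitment elements (rex sites) of the dosage compensation complex, which lowers X expression in hermaphrodites.

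The sequences below are the 100 bp centred on distal summits, read 5′ to 3′ on the plus strand of ce11. The first group gives strong summits outside the X chromosome, the second gives the strongest X summit and 3 X summits that hold the word discussed for X, and the third gives 2 summits that hold the 8-base word AGACGCAG. Capitals mark a searched word or its reverse complement, which is GAGAGA in the first group, GCGCAGGG in the second and AGACGCAG in the third. Sequences without capitals hold none of these words of their group.
Upstream of trmt-10C.2, chrIII:6344874-6344973: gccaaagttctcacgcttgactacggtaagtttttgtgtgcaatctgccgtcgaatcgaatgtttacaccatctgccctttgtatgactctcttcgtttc
Between K08F11.1 and fbxb-78, chrIV:4727992-4728091: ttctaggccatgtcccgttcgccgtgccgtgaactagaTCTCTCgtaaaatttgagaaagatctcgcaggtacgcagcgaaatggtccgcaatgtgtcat
Upstream of snx-6, chrV:17981875-17981974: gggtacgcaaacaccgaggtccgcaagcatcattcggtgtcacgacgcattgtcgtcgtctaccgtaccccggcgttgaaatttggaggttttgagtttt
Between F20B6.9 and hpk-1, chrX:4209207-4209306: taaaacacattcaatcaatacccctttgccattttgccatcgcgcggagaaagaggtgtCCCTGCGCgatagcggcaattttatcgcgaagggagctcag
Between gtr-1 and F25E2.2, chrX:806630-806729: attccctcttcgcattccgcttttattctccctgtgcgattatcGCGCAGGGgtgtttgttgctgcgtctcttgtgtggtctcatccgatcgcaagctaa
Upstream of xol-1, chrX:8036347-8036446: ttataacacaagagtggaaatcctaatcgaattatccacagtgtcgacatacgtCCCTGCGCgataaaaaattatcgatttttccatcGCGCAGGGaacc
Between W04G3.11 and W02H3.3, chrX:11094131-11094230: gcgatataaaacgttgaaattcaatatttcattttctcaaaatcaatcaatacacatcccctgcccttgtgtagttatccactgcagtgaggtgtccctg
Strong summit with the 8-base word on II, chrII:12102527-12102626: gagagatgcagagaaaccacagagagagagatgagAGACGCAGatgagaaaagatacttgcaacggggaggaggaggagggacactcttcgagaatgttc
Strong summit with the 8-base word on IV, chrIV:2219572-2219671: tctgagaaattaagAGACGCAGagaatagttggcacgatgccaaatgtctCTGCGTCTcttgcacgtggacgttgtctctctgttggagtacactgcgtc

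The summit upstream of trmt-10C.2, which belongs to a family of tRNA methyltransferases, had a signal of 1649.7 in the thresholded list, 1001 in replicate 1 and 653 in replicate 2. The summit between K08F11.1 and the F-box gene fbxb-78, at an annotated pseudogene, had 1559, with 913 and 664. A neighbour in the same gap, 398 bp past the end of K08F11.1, had 1031, with 581 and 454. All 3 were strong in both replicates and ranked between 107 and 182 of the 30000 regions of each list. The summit 1843 bp upstream of snx-6, a sorting nexin gene, had 1428, with 860 and 577. A summit on IV between Y105C5A.1 and pqn-76, at the piRNA gene 21ur-8889, had 1244, with 744 and 503. It lay 6634 bp from the nearest 5′ end, and its 100 bp held 54% GC against 24% in the flank.

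The distal summit of highest signal lay on chromosome I, 432 bp past the end of F40E3.3 and 2873 bp before mage-1, a gene of the MAGE family. It had a signal of 2241 in the thresholded list, 1347 in replicate 1 and 917 in replicate 2, and ranked 77, 78 and 74. The other 4 of the 10 strongest lay on X. The summit between W04G3.11 and W02H3.3 had 1260.4, with 692 and 562 in the replicates. That between ZK899.6 and gap-2, a GTPase-activating protein of the Ras pathway, had 1180.3, with 570.0 and 597. That between F19H6.6 and F19H6.5 had 1039, with 668 and 367. The summit 1314 bp from the end of hpk-1, a protein kinase gene, had 1004, with 519 and 499. The 3 weakest members, with signals of 59.9, 60.0 and 60.0 upstream of pygo-1, jnk-1 and djr-1.2, sat at the bottom of the thresholded list. The first of these rested mainly on replicate 1, with 50.6 at rank 4424 against 12.6 at rank 15378 in replicate 2.

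As a class, distal summits were weaker than promoter summits and stronger than intronic ones. Their signal spanned 59.9 to 2241, the median was 98.6 and the quartiles were 74.8 and 153.7, against medians of 140.8 in promoter windows and 88.2 in introns and 114.8 over the list. Of the distal summits, 39.6% were among the 2972 strongest, against 59.5% of promoter summits, a difference of -19.9 percentage points (95% interval -22.96 to -16.8). Replicate 1 alone gave -18.1 and replicate 2 alone -20.1. Against introns the difference was 8.66 points (4.53 to 12.7), with 8.17 and 9.06 in the replicates. The distal share rose down the list, from 1 of the 100 strongest summits and 20 of the next 200 to 553 of the last 1944 (28.4%). Below the threshold, the share in the authors' pooled list was 25.9% at ranks 5945 to 10000 and 850 of 5000 at ranks 25001 to 30000.

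The limit of 1000 bp was compared with the values on both sides of it. The 193 promoter summits 800 to 1000 bp upstream of their nearest 5′ end had a median signal of 101.2, and the 105 distal summits 1000 to 1200 bp upstream had 113.6. GAGAGA lay in 33.7% and 34.3% of these windows, and the 8-base word AGACGCAG in 9.84% and 15.2%.

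Distal summits had looser agreement on height between the replicates than promoter summits. Presence in both replicates is no independent result, since the list was thresholded on reproducibility and each replicate list holds 30000 regions, background included. Of the 1358, 1328 (97.8%, 96.9 to 98.5) had a summit within 200 bp in both replicate lists, and the other classes gave 96.5% to 98.8%. Among the 5944 strongest of both replicates stood 937 (69.0%), against 80.6% of promoter summits, a difference of -11.6 points (-14.4 to -8.84). Another 245 stood there in replicate 1 only, 141 in replicate 2 only and 35 in neither. Across the 1328 matched summits, Spearman's rho of the signals was 0.677 and Pearson's r of log2 signal 0.774, against 0.865 and 0.920 at promoters and 0.559 and 0.695 in introns. These describe agreement across peaks, which are not replicates, and the classes span different ranges of signal. Signal was higher in replicate 1, by a median of 0.55 ± 0.60 on the log2 scale (SD over summits), a ratio of 1.46. With scale and depth unknown, the cause of this offset was not tested. The ratios of single summits below are not corrected for it.

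**Figure D1:**
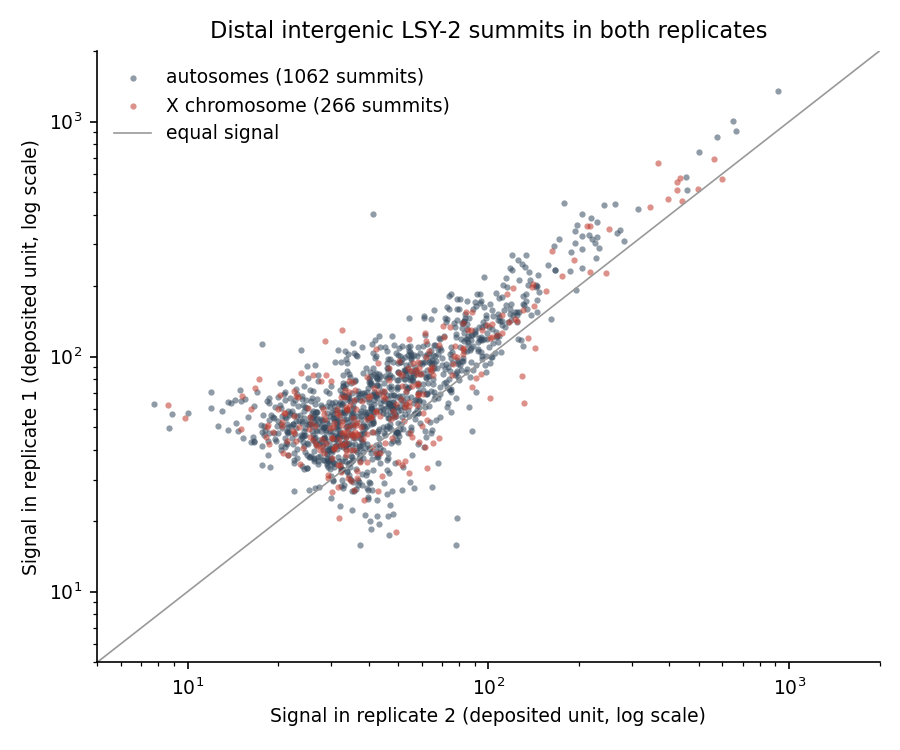
Signal of each distal summit matched in both replicates, replicate 2 on the x axis and replicate 1 on the y axis, both log scales in the deposited unit, with 1062 autosomal summits in grey and 266 X summits in red. Above a signal of about 100 in both replicates the points follow a band, and the cloud below it is wide.

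The largest log2 ratio between the replicates, 3.29 in favour of replicate 1, stood at a summit with a close neighbour and rests on a shared match. This summit, on III between ZK353.9 and sor-1, had 405.2 in replicate 1 and 41.5 in replicate 2. It lay beside a stronger summit of the same gap, at 623.9 in the thresholded list, which had 405.2 in replicate 1 and 204 in replicate 2. Both thresholded summits were matched to the same summit of replicate 1, so that this ratio is not a clean difference between the replicates. Next were a summit between eef-2 and pyk-1, with 62.8 in replicate 1 and 7.75 in replicate 2, and one between mig-15 and C39B10.3, with 61.9 and 8.59. In favour of replicate 2 the largest difference was between ipgm-1 and let-607, with 15.8 in replicate 1 and 77.9 in replicate 2.

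Distal sequence held fewer summits than promoters and more than gene bodies. It makes up 24.8 Mb, 24.8% of the genome, and held 54.7 summits per Mb, against 128 in promoter windows, 20.5 in protein-coding genes away from promoter windows and 59.3 over the genome. The chromosomes differed. Chromosomes III and I had 87.2 and 83.2 distal summits per Mb, II had 63.1, X 48.3, IV 42.6 and V 34.5. In the replicates' own lists III was also highest, with 89.7 and 84.6, and V lowest, with 34.5 and 31.4. On the autosomes, the centres held 73.7 per Mb and the arms 41.7, while X held 48.0 and 48.6. The left arm of II, with 21.2, and the right arms of IV and V, with 21.4 and 20.8, were the sparsest, and the centre of III, with 104.2, was the densest.

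**Figure D2:**
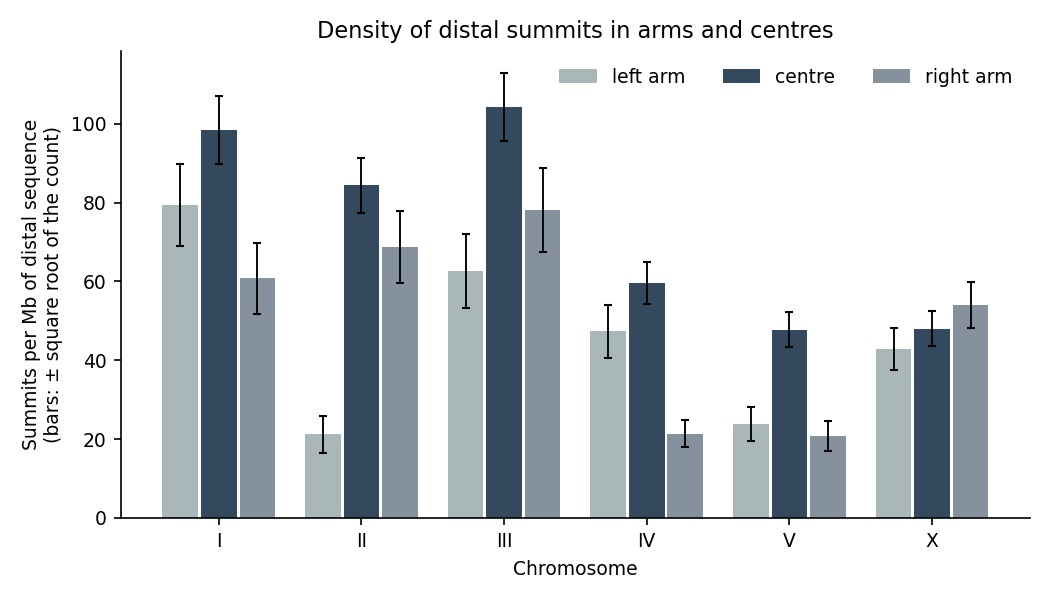
Distal summits per Mb of distal sequence in the left arm, centre and right arm of each chromosome, with bars of the square root of the count. Every autosome is highest in its centre, up to 104.2 on III, whereas the 3 parts of X lie between 42.9 and 54.1.

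X held many of the strongest distal summits without holding more of them in all. It had 271 distal summits, 19.96% of them, on 22.6% of the distal sequence. Of the 20 strongest distal summits 10 lay on X, and 26 of the 100 strongest. In replicate 1's own list X held 9 of the 20 strongest distal summits and in replicate 2's 10. These 10 had signals from 782 to 1260.4, and ranked 151 to 257 in replicate 1 and 127 to 227 in replicate 2. Among ranks 301 to 1000 the X share was 19.8%, and it stayed between 18.3% and 20.1% in each lower range of the thresholded list. Below the threshold, in the pooled list, it was 25.4% at ranks 5945 to 10000 and 20.25% to 23.1% in the ranges after that. The pattern was noticed in the values, and no test was made of it.

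**Figure D3:**
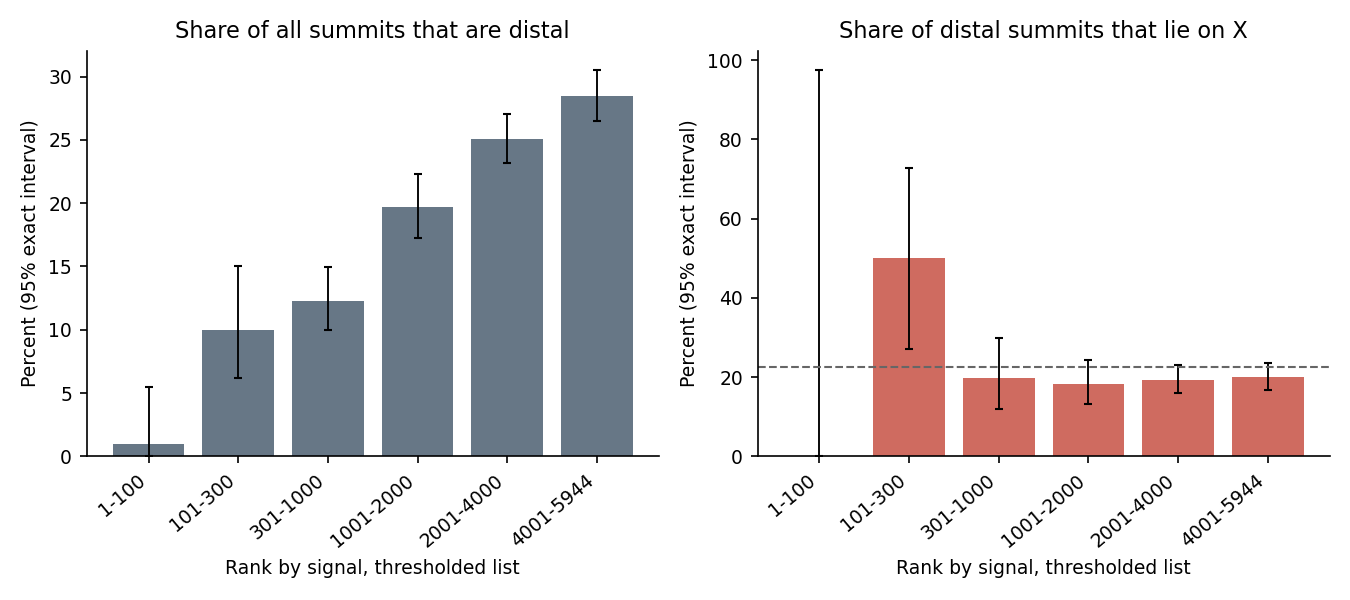
Left, percent of all summits that are distal by rank in the thresholded list; right, percent of distal summits on X by the same ranks, with exact 95% intervals and a dashed line at the X share of distal sequence, 22.6%. The distal share climbs from 1% to 28.4%, and the X share reaches 50% at ranks 101 to 300; the first range of ranks holds 1 distal summit.

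Many of the strongest X summits lay between convergent genes. Of the 20 strongest on X, 11 lay between the 3′ ends of 2 neighbouring genes, against 40 of the other 251 X summits (15.9%) and 1 of the 20 strongest autosomal summits. Convergent gaps make up 12.8% of the distal sequence of X and 17.5% of that of the autosomes. Examples are the summits between W04G3.11 and W02H3.3, between F22H10.2 and F22H10.11 (signal 1002, with 573 and 432 in the replicates) and between gtr-1 and F25E2.2 (898, with 460 and 441). The summit 4916 bp upstream of xol-1, the switch gene of sex determination and dosage compensation, lay between 2 genes of the same strand and had 861, with 469 and 395.

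The word GCGCAGGG, an 8-base core of the motif known from rex sites, was chosen for X after the values were seen. It lay within the 100 bp windows of 8 of 271 distal X summits (2.95%) and of 0 of 1087 autosomal ones, which allows a share of up to 0.276%, a difference of 2.95 points (1.46 to 5.72). Replicate 1's own list gave 8 of 279 and 0 of 1071, and replicate 2's 9 of 264 and 1 of 1036. Of the other classes 2 had it on X as well, in introns at 3 of 134 X windows (2.24%) and 0 of 693 autosomal ones, and in promoter windows at 4 of 398 (1.01%) and 1 of 2995. Summits in mRNA exons had it at 0 of 17 on X and 0 of 151 on autosomes. Those at small RNA genes had it at 0 of 60 and 1 of 138. The same word lay in 0.0533% of the 100 bp tiles of distal X sequence and 0.0265% of autosomal tiles, and in 1 of 1358 flanks. Of the 20 strongest X summits 5 held it in the window and 8 within the peak, and of the other 251, 3 and 5 did. Of the 34 copies in distal X sequence, 15 (44.1%) lay within a distal peak, against 2 of 57 (3.51%) on the autosomes. The summits near hpk-1, gtr-1 and xol-1, with their sequences above, hold it, and the xol-1 window holds it on both strands. The strongest X summit, between W04G3.11 and W02H3.3, lacked the word in its window and had it elsewhere in its peak.

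Distal summits carried the words that mark LSY-2 peaks, within GC-rich cores. The 100 bp at the summit had 42.8% GC and the flank 34.4%, a difference of 8.34 ± 10.8 points (SD over 1358 summits), with the summit higher at 77.2% of them. The mean over all 100 bp tiles of distal sequence was 34.3%. In exact two-sided McNemar tests with Benjamini-Hochberg adjustment over 2080 words of 6 bases, 379 (18.2%) were more frequent at the summit than in the flank and 293 (14.1%) less frequent. AGAGAG lay in 30.4% of summit windows and 7.22% of flanks (exact test, adjusted p = 9.57e-54) and GAGAGA in 32.7% and 9.28%. Also above their flanks were AGAGAC, with 20.6% and 3.98%, then CGTCTC, with 17.4% and 2.87%, and then AAGAGA, with 29.2% and 10.3%. They overlap the first words by several bases. AAAATT lay in 16.3% of summit windows and 44.6% of flanks (exact test, adjusted p = 6.25e-56). The next were AAAAAT, in 23.5% and 49.8%, then TAAAAA, in 13.6% and 35.7%, then TTAAAA, in 8.76% and 28.7%, and then ATTTTA, in 8.25% and 25.6%. Of all 100 bp tiles of distal sequence 5.29% held GAGAGA.

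The 8-base word AGACGCAG, known from earlier results of these data, lay in 147 distal windows (10.8%, 9.22 to 12.6), in 0.442% of flanks and in 0.567% of distal tiles. The 340 strongest distal summits held it in 16.8% of windows and the 340 weakest in 7.94%, and GAGAGA in 40.6% and 26.5%. Distal summits on X had less of both. AGACGCAG lay in 4.80% of X and 12.3% of autosomal windows, a difference of -7.53 points (-10.4 to -3.82), and GAGAGA in 19.6% and 35.97%, a difference of -16.4 points (-21.6 to -10.6). Both replicates' own lists showed the same order, with 16.8% and 18.2% for GAGAGA on X against 35.8% and 33.7% on autosomes. Intronic summits did too, with AGACGCAG in 4.48% on X and 8.66% on autosomes, and GAGAGA in 21.6% and 32.3%. In promoter windows AGACGCAG lay in 6.53% and 10.2%, but GAGAGA was more frequent on X, at 27.4% against 22.6%. Distal X sequence also held AGACGCAG less often, in 0.289% of tiles against 0.648%. Of the 20 strongest X summits 1 held AGACGCAG and 2 held GAGAGA, against 3 and 11 of the 20 strongest on autosomes.

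**Figure D4:**
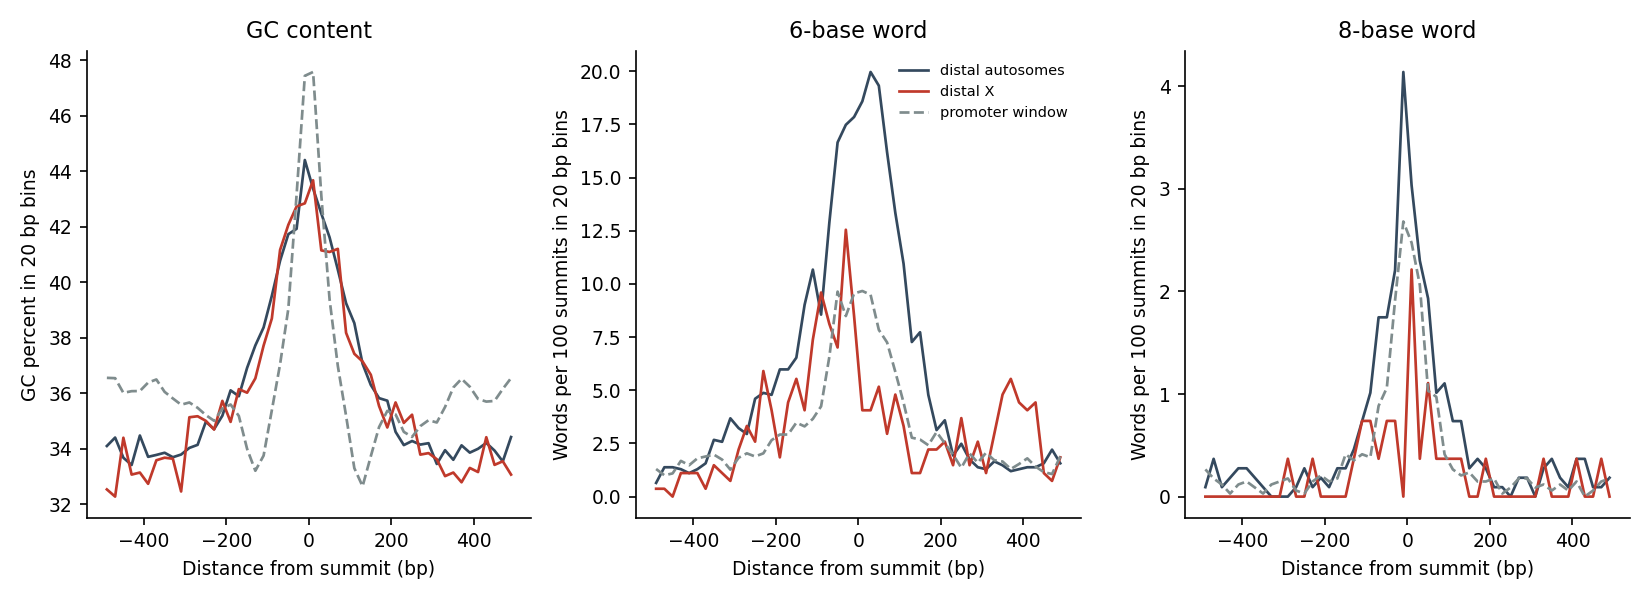
GC percent, and the number of GAGAGA (6-base word) and AGACGCAG (8-base word) per 100 summits, in 20 bp bins by distance from the summit, for distal autosomal, distal X and promoter summits; both strands and overlapping matches are counted. GAGAGA at distal autosomal summits spreads over about 100 bp on each side and reaches 19.96 per 100, and the X line stays below it in the centre.

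Most words frequent at distal summits were also frequent at promoter summits, but not the reverse, and some words differed. Of the 379 words more frequent at distal summits, 309 (81.5%) were also more frequent at promoter summits. There 677 of the 2080 words were called, and 45.6% of those were also called at distal summits. In exact two-sided tests of the difference between the classes, 81 words (3.89%) passed adjustment, 29 with larger and 52 with smaller odds at distal summits. This count moved with the settings, to 18 with 2000 bp upstream excluded, 29 in the strongest peaks, 174 with flanks at 400 bp and 262 with windows of 200 bp. GCAAAC lay in 6.63% of distal windows and 5.67% of their flanks, and in 13.9% and 4.33% at promoters (exact test of the difference, adjusted p = 4.29e-06). At promoter summits and flanks CTAGGC lay in 3.65% and 1.06% of windows, then AAGTGC in 8.46% and 3.33%, then GCTCTA in 6.01% and 1.86%, and then CGCAAA in 12.7% and 5.36%. Distal windows held them at 1.55%, 4.49%, 2.28% and 6.19%, and none of the 4 passed the test of summit against flank there. CTCTTC leaned the other way, with 19.9% and 5.38% at distal summits against 13.2% and 7.07% at promoters (exact test, adjusted p = 0.000397), and so did GAAGGA, with 8.54% and 3.98% against 5.10% and 5.33%. The lack of AAAATT at summits was deeper at distal sites, with 16.3% and 44.6% against 21.3% and 42.2% (exact test, adjusted p = 0.00272). The share of windows with GAGAGA was 9.53 points higher at distal than at promoter summits (6.69 to 12.4), with 8.53 and 8.72 in the replicates. Against intronic summits, at 30.6%, the difference was 2.10 points (-1.94 to 6.07). Distal flanks had more of it too, 9.28% against 6.40%, and the odds of summit against flank did not pass the exact test of the difference (adjusted p = 0.753). AGACGCAG differed by 1.07 points from promoters (-0.794 to 3.07) and by 2.84 from introns (0.28 to 5.27).

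Most distal summits lay upstream of their nearest 5′ end, but no background was computed for this share. Of the 1358, 965 (71.1%) did so, a share that the rule partly sets, since gene bodies were left out. Within 500 bp past a 3′ end lay 284 (20.9%). The same shares of all distal sequence were not computed, so neither value shows a preference of the summits. Of the distal sequence, 29.9% lay in gaps between genes pointing apart, 53.6% in gaps between same-strand genes and 16.5% in convergent gaps. The 21 summits over 10 kb from any 5′ end included one on III, 16621 bp from that of aakg-1, a subunit gene of AMP-activated kinase, and 139 bp past the end of sql-1, with a signal of 118.9 (80.5 and 42.7 in the replicates). The next farthest, 15208 bp upstream of C31H1.2 and 14967 bp from the 5′ end of T06A4.1, had signals of 62.2 and 60.2, and the last had no match in replicate 2. Gaps between genes that point apart held 56.8 summits per Mb and gaps between genes of the same strand 60.1, whereas convergent gaps held 34.1. In convergent gaps the words were scarcer, AGACGCAG in 3.597% of 139 windows and GAGAGA in 13.7%, against 11.9% and 34.7% in divergent gaps and 11.5% and 35.0% in tandem ones. Of these 139 summits 51 lay on X, where distal summits held both words less often. The contrast by gap was not separated from that by chromosome.

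Distal summits lay in a small share of the gaps. Of the 8943 gaps with distal sequence 942 (10.53%) held a summit, and 262 of them held 2 or more (175 held 2 and 87 held 3 or more), with 678 of the 1358 summits. Gaps with a summit were longer, with a median of 5193.5 bp against 2201 bp. Longer gaps have more room for a summit, and no rate by gap length was computed. The richest gap, 18574 bp on II between snt-1, the gene of the vesicle protein synaptotagmin, and egl-27, held 10 summits between 4194 and 12906 bp past the end of snt-1. Their signals ran from 80.8 through a median of 103.05 to 164 in the thresholded list, from 45.9 through 65.0 to 102.8 in replicate 1 and from 32.97 through 41.9 to 70.5 in replicate 2. None was strong, all 10 were matched in both replicates, and 4 held GAGAGA. Next came the gap between got-2.2 and W05H9.4 on X with 8 summits, and 3 gaps with 7, at F54F12.1 and Y39E4B.6, at rho-1 and zip-7, and at mxl-3 and C49F8.15.

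Other annotated genes lay near some distal summits. An ncRNA gene lay within 200 bp of 184 summits (13.5%, 11.8 to 15.5), and that margin covers 4.73% of the distal sequence. For lincRNA genes it was 29 summits (2.14%) on 0.926% of the sequence. Pseudogenes went the other way, near 18 summits (1.33%) on 12.8% of the sequence, and so did piRNA genes, near 16 (1.18%) on 6.22%. Antisense RNA genes lay near 3 summits (0.221%) on 0.0792% of the sequence, beside F42G2.2 (102.7), the calcineurin gene tax-6 (82.3) and F37H8.6 (67.7). No summit lay near an rRNA gene, a margin of only 0.0594% of the sequence, where a count of 0 allows a share of up to 0.221%. The strongest summits at ncRNA genes lay between casc-3 and W08E3.4 (602.5, with 334.6 and 268 in the replicates), upstream of egl-9 (600.3, with 373 and 230.0) and near C30E1.4 on X (599, with 359.7 and 212). The strongest at a lincRNA lay between cutl-22 and the calmodulin gene cmd-1 (484, with 315 and 172). At pseudogenes the strongest after that near fbxb-78 lay between cysl-4 and F59A7.7 (729, with 424 and 315) and between sgn-1 and F07H5.13 (546, with 330 and 216). No test was made of these shares.

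Genes beside distal summits were counted in 17 lists. Of the 13211 protein-coding genes with distal sequence next to them 1789 (13.5%) had a distal summit in that gap, and 54.9 summits fell per Mb. A summit counts for both genes of its gap, and genes with longer gaps have more room, so that the rate per Mb stands beside the counts. Among pan-neuronal genes of synapses and vesicles 16 of 28 had one, at 238 per Mb, and without snt-1 15 of 27, at 184. For all 16 a summit lay on the upstream side, and for snt-1 also 10 on the downstream side. Over all 1789 genes with a summit, 1111 had one on the upstream side and 773 on the downstream side. The strongest was 1520 bp upstream of the kinesin heavy chain gene unc-116 (399.5, with 271 and 133 in the replicates). Others were upstream of egl-3, a proprotein convertase that cuts neuropeptide precursors (279, with 155 and 127), and of the syntaxin gene unc-64 (236, with 133 and 101). The syntaxin gene's partners in vesicle fusion, snb-1 (73.0, with 35.7 and 35.0) and ric-4 (112, with 61.1 and 52.4), had weaker ones.

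Several lists, most of them of developmental regulators, had shares above 13.5%. Of the heterochronic genes, which time larval stages, 7 of 17 had a distal summit, at 154 per Mb, the strongest 1520 bp upstream of lin-41 (249.9, with 182 and 74.2), and others at hbl-1, blmp-1, daf-12, alg-1, kin-20 and puf-9. Of the Wnt pathway genes 7 of 21 did, at 78.3, the strongest 7732 bp upstream of the kinase gene lit-1 (121, with 67.0 and 53.6). Homeobox genes had 19 of 86, but at 58.1 per Mb they were close to the background of 54.9, with a median of 4.97 kb of distal sequence against 1.97 kb over all genes. Their strongest lay between ceh-22 and gsp-1 (212, with 122 and 85.5). Nuclear hormone receptors had 42 of 207, at 75.03, the strongest upstream of nhr-20 (343, with 200.2 and 145). Among bHLH factors 6 of 31 did, at 80.4. Of the summits beside them 9 belonged to mxl-3 alone, and the rate without that gene was not computed. The strongest of this list lay 1971 bp upstream of hif-1, the hypoxia-inducible factor (484, with 263 and 228). The gene of its prolyl hydroxylase, egl-9, had the similarly strong summit given above, 1718 bp upstream. Outside these regulators, of the 36 cytosolic ribosomal protein genes with distal sequence 9 had a summit. For 6 of the 9 a summit lay on the downstream side, against 773 of 1789 over all genes. The list had 189.7 summits per Mb, with a median of 0.372 kb of distal sequence. That rate was second to the pan-neuronal list. The strongest lay 4967 bp past rpl-21 and 3352 bp upstream of gei-8 (387, with 269 and 120).

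The remaining lists had 1.86% to 16.7% of genes with a summit. Of the ASE asymmetry genes 3 of 18 had a distal summit, all weak: ztf-6 (95.1, with 59.1 and 42.4), cog-1 (67.8, with 48.5 in replicate 1 and no match in replicate 2) and fozi-1 (63.8, with 30.9 and 30.03). These lay 18570, 19405 and 9501 bp upstream, and the list had 22.7 summits per Mb. Vulval and Notch pathway genes had 4 of 26, at 39.4, led by the Ras gene let-60 (134, with 87.3 and 52.4). T-box factors had 2 of 18, at 48.2, with the strongest 13306 bp past tbx-34 and 21984 bp past tbx-41. The latter lay 3565 bp upstream of B0294.3. GATA factors had 2 of 12, and their 126 summits per Mb came from 10 in the gap of snt-1 and egl-27 and 1 beside elt-3. Neuropeptide genes had 11 of 122, at 22.8, although the summit between nlp-40 and rcor-1 reached 965 (512 and 458). Potassium channel genes had 6 of 56, at 23.1, led by unc-103 (129, with 89.5 and 46.6). Cuticle collagens had 10 of 113, at 34.6, led by an X summit 3475 bp upstream of col-185 (456, with 229 and 218) that holds GCGCAGGG. Large families were lowest, with chemoreceptors at 18 of 970 and 8.87 per Mb, C-type lectins at 5 of 161 and 16.6, and F-box genes at 9 of 213 and 14.6. Their strongest lay 12171 bp past srw-60 (317), 1728 bp past clec-182 (177) and 9516 bp upstream of fbxb-78 (1559). The first of these lay 2585 bp upstream of nhr-88 and also counts for the nuclear hormone receptors.

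**Figure D5:**
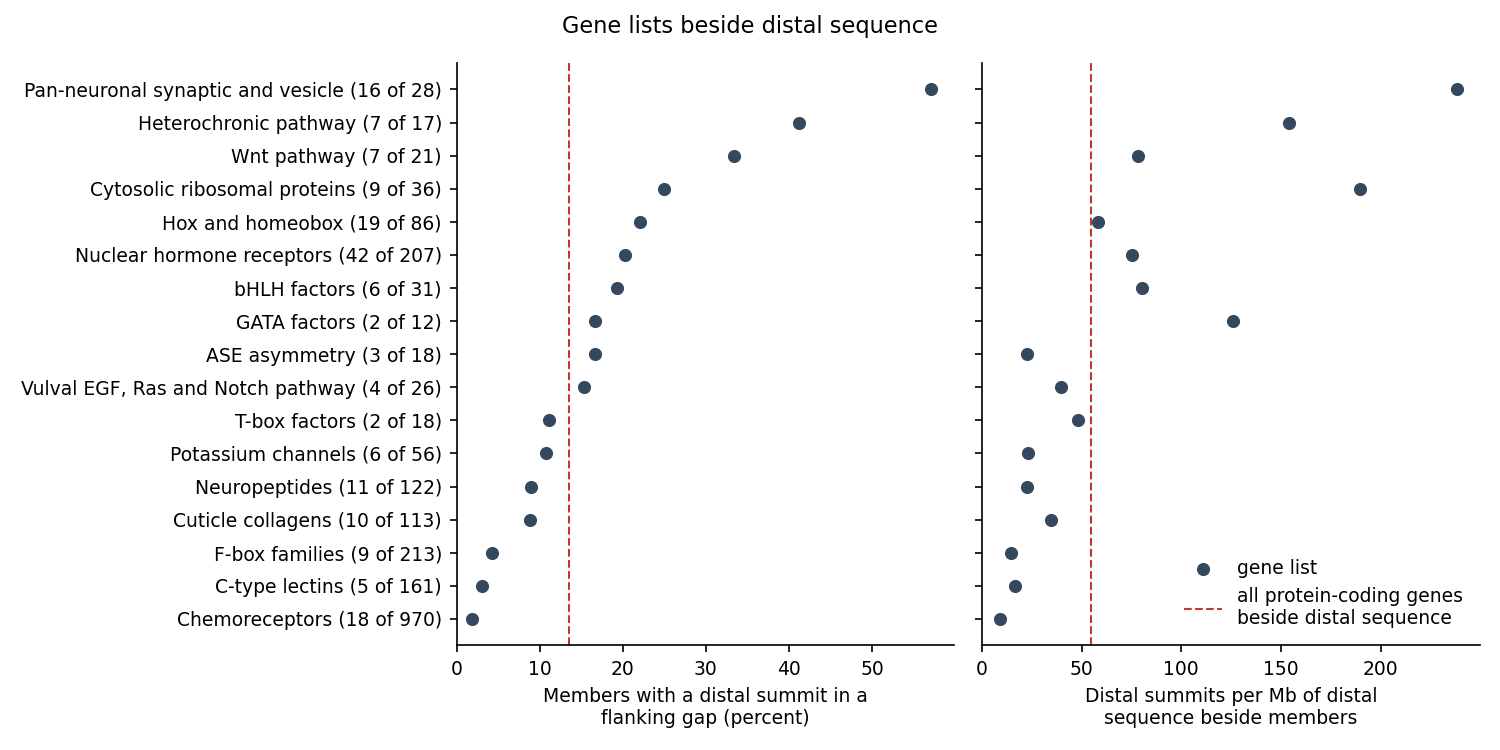
Left, percent of the members of 17 gene lists, among those beside distal sequence, that had a distal summit in a flanking gap; right, distal summits per Mb of that sequence; dashed lines give all protein-coding genes, 13.5% and 54.9 per Mb. Pan-neuronal, heterochronic, ribosomal protein, Wnt, bHLH, nuclear hormone receptor, GATA and, closest to the line, homeobox genes lie to the right on both scales. Chemoreceptors, C-type lectins, F-box genes, cuticle collagens, neuropeptides, potassium channels and T-box factors lie to the left on both. ASE asymmetry and vulval and Notch pathway genes lie to the right on the left scale only.

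The genes of the transgene itself showed no distal signal. No distal summit lay within 20 kb of lsy-2 on X or of unc-119 on III, and the strongest thresholded summit near unc-119 had a signal of 124.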

How the data were processed

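ChIP-seq peak lists of 2 biological replicates of 1 group were used. Per the labels and the deposited notes, the authors compared alignments with a control alignment and gave, per replicate, 30000 peaks and background regions, the same for the replicates pooled, and the peaks that passed a threshold on the irreproducible discovery rate. This threshold, the aligner and the caller were not given in the sources used here. The deposited signal per peak has no stated scale, so classes and summits were compared by ranks and values of one list. Ratios between the replicates were also taken, without correction for scale or depth. The depth is unknown. The ce10 lists, of which the thresholded one had 5803 peaks, were not classified here.

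Genes came from Ensembl release 115 and sequence from RefSeq, both of WBcel235. Summits were classed in the order promoter window, small RNA gene, mRNA exon, intron and distal. Each thresholded summit was matched to the strongest replicate summit within 200 bp. Each replicate's own list means its 5944 strongest peaks. A gap runs between neighbouring protein-coding genes. Words were sought on both strands at the summit and in 1 flank of 100 bp starting 200 bp away, to the right for odd and to the left for even ranks, with exact McNemar tests, and classes were compared by exact tests of the windows that held a word on one side only. Calls were made at an adjusted p under 0.05 (Benjamini-Hochberg). Shares have exact Clopper-Pearson and differences of shares Newcombe 95% intervals, which cover counting error over peaks only. A count of 0 allows 3 counts of the total. No comparison between groups of samples was possible.

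The members, gene lists, words and tests were chosen with earlier results of these data known. Named summits were the 10 strongest, the 3 farthest from a 5′ end, the strongest beside each gene list, the 3 strongest at each other class of non-coding gene and the 3 weakest, and named words the 5 of smallest p in each direction. The X summits beyond these, the gaps richest in summits, single list members, the largest disagreements and the word GCGCAGGG were chosen after their values were seen. The word tests were tested on simulated windows in which summit and flank had the same base composition. Real summits were richer in GC than their flanks, so the simulation cannot show how many calls follow base composition. Tools were matplotlib 3.10.9, statsmodels 0.14.6, SciPy 1.17.1, pandas 2.3.3 and numpy 2.4.6 under Python 3.11.15.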

Additional observations from a re-analysis of the deposited data

How the results depend on the processing

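Counting error and 2 replicates limit these results, and peak lists without reads give no depth. Over 79 recomputed values 52 stayed within their interval or within 1.5 times the count, and 27 moved. No direction reversed, but most of these values are shares, densities or counts, which have no direction to reverse. With each replicate's own list alone, the distal share was 21.9% to 22.7%, the difference to promoters in the share among the strongest -20.1 to -18.1 points, the words called at distal summits 596 to 607 against 672, and those differing from promoters 84 to 113 against 81. In the 2972 strongest peaks the distal share was 18.1%, the share matched in both replicates 98.5%, the words called 404 and the differing words 29. With 2000 bp upstream excluded the distal share was 14.9% and 18 words differed. Outside every annotated gene the distal share was 18.8%. Flanks at 400 bp gave 174 differing words and windows of 200 bp 262. Summits matched within 100 bp gave 92.1%. Added after seeing the data, the whole peak held AGACGCAG at 16.9% and GAGAGA at 55.3% of distal summits. The cause of these shifts was not tested, except that fewer distal summits entered in the strongest peaks (538) and with 2000 bp upstream excluded (887). The ce10 list was not run. No paired analysis was possible because the series holds 1 group.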
